A study of Mus musculus with 12 samples.

Results

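The pituitary transcriptome of mice lacking Crhr1, the receptor for corticotropin-releasing hormone (CRH), was compared with that of wild-type mice over 3 treatments. The comparison used all 12 arrays of the 12 in the series, 6 titled Crhr1-ko and 6 titled Crhr1-wt. The 2 arrays of each group carry the title of technical replicates, so they were averaged, which left 3 RNA pools per genotype, matched by treatment. The design text also gives N=2 per group, which could count pools, and the titles were used here. The question was which transcripts differed between the genotypes in the same direction whether or not the animals had been stressed.

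Each genotype contributed a control pool, a pool taken 1 h and a pool taken 3 h after the onset of 30 min of restraint in a tube. Per the labels, every mouse, controls included, received metyrapone, which blocks the last step of corticosterone synthesis, at 150 mg/kg 12 h before stress and at 100 mg/kg directly before it. Blood was also drawn from the orbital sinus after the second injection. All differences between the genotypes were therefore measured under metyrapone. The knockout allele, the strain, the sex and age of the mice and the number of animals in a pool are details that the sources used here do not state. In the knockout control and knockout 3 h arrays the source field names a death at 1 h, against their titles, and the titles were followed. The arrays of replicate 1 lay on 1 slide and those of replicate 2 on the other, with the groups in the same positions on both, so that array position and group cannot be told apart. Detection was also uneven. Between 9212 and 13506 of 46147 probes were detected on 11 arrays, at a detection p-value under 0.01, but 6119 on replicate 2 of the knockout 3 h pool, whose correlation with its partner array was 0.92 against 0.964 to 0.979 elsewhere. In bulk tissue, fewer cells of a type and less RNA per cell cannot be told apart.

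CRH released from the hypothalamus binds CRHR1 on the corticotrope cells of the anterior pituitary. The receptor signals through Gs, cyclic AMP and protein kinase A, which drive transcription of Pomc and release of the stress hormone ACTH. ACTH makes the adrenal cortex secrete glucocorticoids, which act back on the pituitary through the glucocorticoid receptor and switch on genes such as Fkbp5, Tgm2 and Klf9. Mice without a working Crhr1 are known for a small adrenal response to stress and low circulating corticosterone.

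The targeted transcript was examined first. Probe 5390647 of Crhr1 read 5.72 and 6.74 on the wild-type control arrays, 6.12 and 5.76 at 1 h, and 6.28 and 6.27 at 3 h, on the log2 scale of normalized intensity. The knockout arrays read 5.24 and 5.15, 5.5 and 4.68, and 5.12 and 5.7 in the same order, so every knockout array lay below every wild-type array. The wild-type pools averaged 6.15 ± 0.18 and the knockout pools 5.23 ± 0.16 (SD over 3 pools of each genotype; exact two-sided permutation p = 0.1, the smallest that 3 against 3 can give). This probe was detected on 4 of 6 wild-type and 0 of 6 knockout arrays, so it was close to background in both genotypes, and its adjusted p in the limma fit was 0.143. Probe 450161 differed by 0.00 (exact permutation p = 1) and was detected on 1 array of each genotype. Probe 3140070 was detected on no array (exact permutation p = 0.2). No source used here says which exons the allele removes or where the probes bind, so the 3 probes are a weak check of genotype.

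Across the array more probes were lower than higher in the knockout pituitary. Of 14405 probes tested, 2915 (20.2%) were lower and 1706 (11.8%) higher in knockout at all 3 treatments, with no demand on size. With a difference of at least 1.5-fold at every treatment, 162 probes (1.12%) were lower and 37 (0.257%) higher. Under median scaling in place of quantile scaling, 5558 were lower and 420 higher at all 3 treatments. The knockout pools did not overlap the wild-type pools for 1485 lower (10.3%) and 731 higher probes (5.07%). The median of all tested probes was 0.00 in control, -0.01 at 1 h and -0.11 at 3 h. Among the 162 lower probes, 158 had 1 sign in all 6 pairs of arrays matched by treatment and slide, as did 1174 lower (8.15%) and 600 higher (4.17%) of all tested probes, and 38 were detected on no knockout array. Among the 37 higher probes, 34 had 1 sign in all 6 pairs, and 3 were detected on no wild-type array. All 6 arrays of the dimmer genotype detected 20 of the 162 lower and 13 of the 37 higher probes, so the excess of lower probes lay mostly among dim ones. Both sets were chosen on the means of these same arrays, so their counts over pairs are not a separate check. The threshold cut through a continuum. Polk (-0.60, -0.73 and -0.59 in control, 1 h and 3 h) and Lum (0.59, 0.73 and 0.61) lay just inside it, while Mmp2 (0.78, 0.58 and 0.62) and C1qc (0.67, 0.58 and 1.03) lay just outside.

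The test of the genotype difference over the 3 matched pools, limma with treatment as a second term, was passed at an adjusted p under 0.05 and at least 1.5-fold by 11 probes lower (0.0764%) and 1 probe higher (0.00694%) in knockout. At an unadjusted p under 0.05 there were 1124 lower and 484 higher probes. The number of calls changed with single arrays and with the processing. Of the 12, 7 still passed without the 3 h pools of both genotypes, 7 without background correction and 1 with no detection filter. Without replicate 1 of the knockout 3 h pool a single probe passed, without its replicate 2 there were 44 lower and 17 higher, and without replicate 1 of the wild-type control pool there were 5 lower and 1 higher. On the slide of replicate 1 alone 12 lower and 3 higher probes passed, and on that of replicate 2 alone 0 lower and 1 higher. All 12 probes kept their sign in every alternative in which they were tested. The p-values take the disagreement between treatments as the error. With the arrays of a group read as 1 pool, per the titles, there is no second pool of animals for any group.

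**Figure D1:**
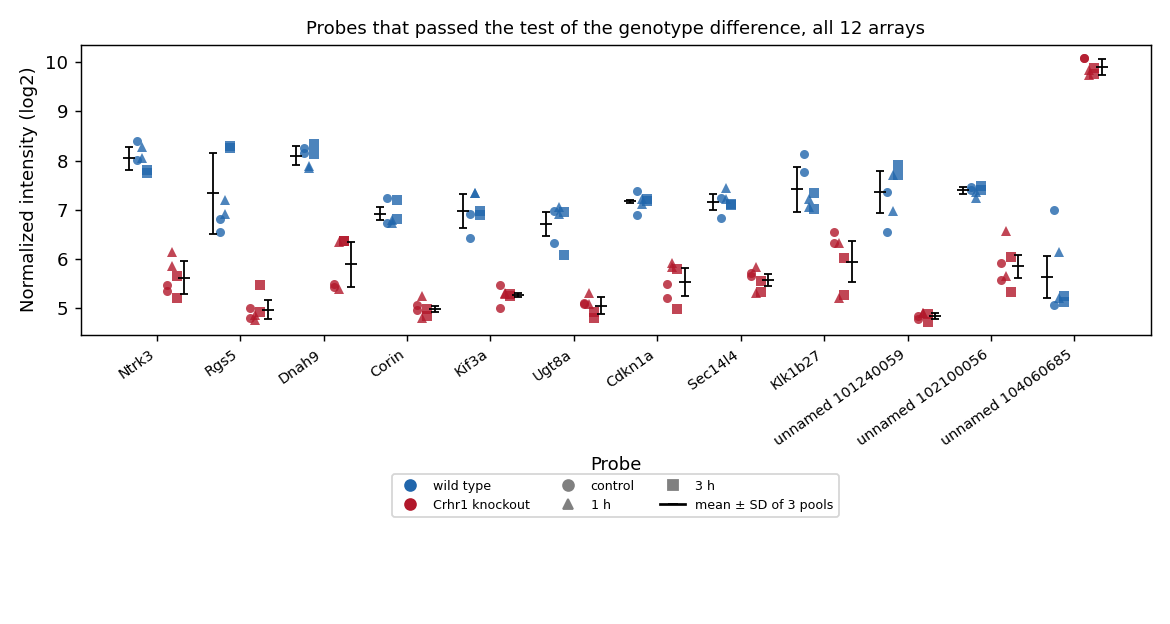
Normalized log2 intensity on all 12 arrays for the 12 probes that passed the test of the genotype difference, with wild type in blue, knockout in red, treatments as symbols, and the mean and SD of 3 pools as black bars. All 6 knockout arrays lie below all 6 wild-type arrays for the first 11 probes and above them for unnamed probe 104060685.

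Ntrk3, which encodes TrkC, the receptor for the growth factor neurotrophin-3, was lower on all 3 tested probes and passed the test on 1. Its probe 6100484 read 8.20, 8.16 and 7.78 in the wild-type control, 1 h and 3 h pools and 5.42, 6.01 and 5.43 in the knockout pools. Wild-type arrays lay between 7.75 and 8.39 with a median of 8.04, and knockout arrays between 5.21 and 6.15 with a median of 5.57, so the genotypes did not overlap. The difference was -2.43 ± 0.20 (log2, SE, n = 3 pools per genotype, limma adjusted p = 0.00762), and 1 of 6 knockout arrays detected it. Both other Ntrk3 probes were also lower at each treatment without passing the test. Probe 4070167, detected on all 12 arrays, differed by -1.36 (adjusted p = 0.0803) and probe 4050687 by -0.74 (adjusted p = 0.198).

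Dnah9, a heavy chain of the dynein motor of motile cilia, read 8.21, 7.87 and 8.23 in the wild-type pools and 5.46, 5.86 and 6.36 in the knockout pools. Its highest knockout array, 6.37, lay below its lowest wild-type array, 7.85. It fell by 2.21 on the log2 scale (SE 0.22, limma adjusted p = 0.0162). All 6 wild-type arrays but only 2 of 6 knockout arrays detected it, so most knockout readings were near background. Kif3a, a subunit of the kinesin-2 motor that moves cargo along cilia, was not well above background on any knockout array. It was at least 1.43-fold lower (limma adjusted p = 0.0306), with wild-type pools at 6.99 ± 0.35 and knockout pools at 5.27 ± 0.04 (SD, n = 3). A brighter Kif3a probe, 5050348, detected on all 12 arrays, differed by -0.57 (adjusted p = 0.347). Its pools read 9.11, 9.26 and 8.78 in wild type and 8.64, 8.35 and 8.46 in knockout.

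Corin, a membrane serine protease that activates atrial natriuretic peptide, had a detected signal on 6 of 6 wild-type and 0 of 6 knockout arrays. Wild-type pools read 6.99, 6.77 and 7.01 and knockout pools 5.01, 5.02 and 4.91. The knockout values sit at the floor of the scale, so the fold is a bound: at least 1.37-fold lower, against the lowest signal of detected probes on each array (limma adjusted p = 0.0138; measured difference -1.94 ± 0.19, SE). Sec14l4, a SEC14-like lipid-binding protein, gave 7.03, 7.33 and 7.11 in wild type and 5.68, 5.57 and 5.45 in knockout, at least 1.62-fold lower (adjusted p = 0.0325). Ugt8a, the galactosyltransferase that makes the main glycolipid of myelin, was detected on 5 wild-type and 0 knockout arrays. It was at least 1.19-fold lower (adjusted p = 0.0222), with pool means of 6.72 ± 0.24 and 5.05 ± 0.17 (SD, n = 3).

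Cdkn1a, the cell cycle inhibitor p21, which glucocorticoids and p53 both induce, was lower by both of its probes. Probe 6400706 gave 7.17 ± 0.04 over the wild-type pools and 5.54 ± 0.29 over the knockout pools (SD, n = 3) and was detected on 0 knockout arrays, at least 1.63-fold lower (limma adjusted p = 0.0325). Probe 4050088 read 7.06, 7.10 and 7.53 in the wild-type pools against 5.47, 6.25 and 5.30 in knockout, a difference of -1.55 (adjusted p = 0.125) that did not pass. On both probes all 6 knockout arrays lay below all 6 wild-type arrays.

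Rgs5, a regulator of G-protein signalling known as a marker of pericytes, was split between its probes. Probe 105890239 read 6.68, 7.06 and 8.27 in the wild-type pools and 4.90, 4.82 and 5.20 in knockout, at least 1.83-fold lower (limma adjusted p = 0.0222). Probe 101410068 had mixed signs, at 0.70 in control, -0.70 at 1 h and 1.52 at 3 h, with a mean of 0.51 (adjusted p = 0.673). Its arrays ran from 7.47 to 8.71 in wild type and from 7.55 to 9.04 in knockout. A difference of the whole Rgs5 transcript is therefore not shown.

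Klk1b27 belongs to the glandular kallikreins, serine proteases of a tight gene cluster whose members are so alike that probes may read several of them. Its probe 103800270 read 7.95, 7.14 and 7.18 in wild type and 6.44, 5.77 and 5.65 in knockout (-1.47 ± 0.18, SE, adjusted p = 0.0358). Of 36 probes for kallikrein genes on the array 12 were tested, and all 10 tested probes of the Klk1b group had negative mean differences, from -1.47 to -0.20. Only 7 of the 10 were negative at each treatment, 6 in the authors' table, and the rest had mixed signs. The 10 means stayed negative without background correction, in the authors' table and under median scaling. Of all 14405 probes, 7936 were also below 0, and 11643 under median scaling. Klk1b21 and probe 102370377 of Klk1b16, negative at each treatment (adjusted p = 0.126 and 0.164), were detected on 5 and 4 wild-type and on 0 knockout arrays, too near background for a fold. Klk1b24 and Klk1b1 were detected on 3 and 2 wild-type and on 0 knockout arrays. Probes such as these entered the tests through wild-type arrays alone, which favours a negative sign, so the count of 10 is only a description. The remaining kallikrein probes, for Klk8 and the tissue kallikrein Klk1, differed by 0.54 (adjusted p = 0.378) and 0.91 (adjusted p = 0.233).

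The remaining 3 calls have no gene name in the probe table. Probe 104060685 was the only one higher in knockout. It read 6.03, 5.68 and 5.19 in the wild-type pools and 10.09, 9.80 and 9.82 in the knockout pools, a rise of 4.27 ± 0.20 (log2, SE, limma adjusted p = 0.000146). All 6 knockout arrays detected it, between 9.75 and 10.09, against 2 of 6 wild-type arrays, between 5.07 and 6.99. It passed in all 28 alternatives that were run for it, each array left out included, at differences between 2.74 and 4.70. Probe 101240059 was at least 1.86-fold lower (adjusted p = 0.00762; 0 of 6 knockout arrays detected). Probe 102100056 differed by -1.55 ± 0.20 (adjusted p = 0.046).

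The plot of the 24 lowest named probes by treatment places these calls beside genes that were as far down without passing the test. Slc10a4, a transporter found on synaptic vesicles, read 8.98, 9.45 and 9.08 in wild type and 7.46, 8.17 and 6.91 in knockout (-1.66 ± 0.22, SE, adjusted p = 0.0532). Bmper, a secreted modulator of BMP signals, differed by -1.57 ± 0.21 (adjusted p = 0.0561), with wild-type arrays from 7.83 to 8.61 and knockout arrays from 5.77 to 7.14. Ceacam10, a secreted member of the carcinoembryonic antigen family, was detected on 6 wild-type and 0 knockout arrays and was at least 1.98-fold lower in measured level (adjusted p = 0.0624). Without replicate 2 of the knockout 3 h pool, or with the arrays as units, some of these passed. Each result was negative in all of its alternatives.

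**Figure D2:**
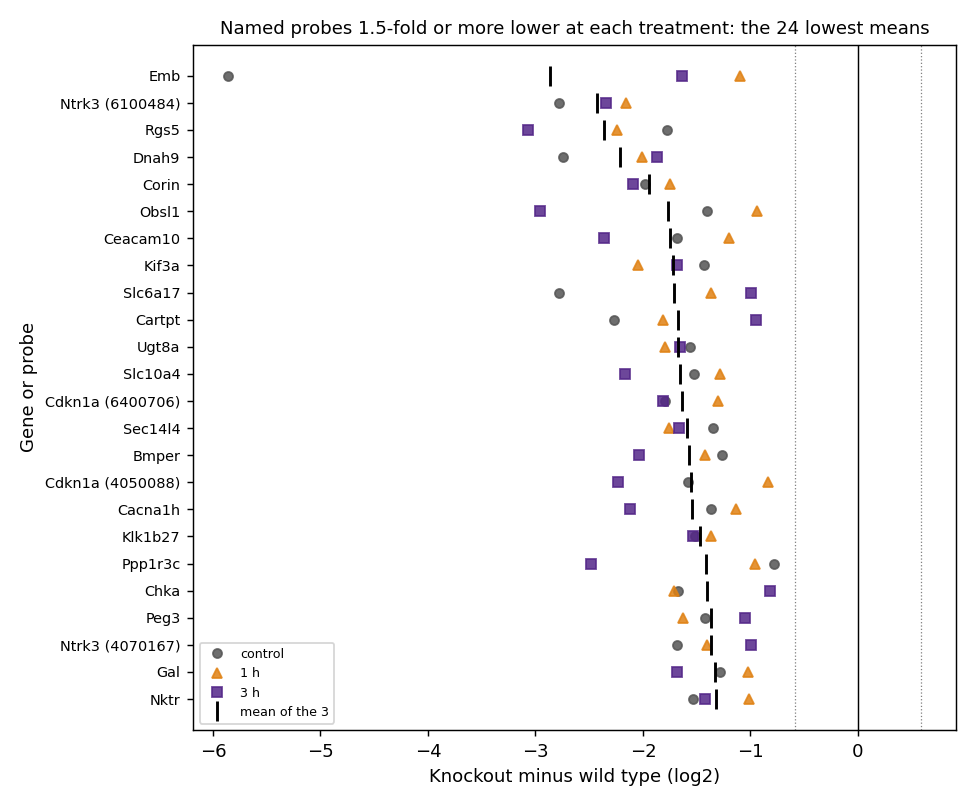
Knockout minus wild type on the log2 scale for the 24 named probes with the lowest mean among those at least 1.5-fold lower at each treatment, with 1 symbol per treatment and a bar at the mean. Dotted lines mark 1.5-fold, and the lowest symbol, Emb in control, is set against knockout arrays that did not detect the probe.

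Neuropeptide genes lay on both sides. Gal, which encodes galanin, a peptide that pituitary endocrine cells make themselves, was detected on all 12 arrays. Its pools read 10.75, 10.96 and 10.80 in wild type and 9.47, 9.94 and 9.12 in knockout. The arrays did not overlap, with 10.61 the lowest in wild type and 9.95 the highest in knockout. The difference over pools was -1.33 ± 0.20 (SE, adjusted p = 0.086), which missed the threshold. Against the spread of technical arrays it passed in control (-1.28), at 1 h (-1.02) and at 3 h (-1.68, adjusted p = 0.00291). Cartpt, the precursor of the CART peptide, read 7.29, 7.46 and 6.40 in wild type and 5.02, 5.65 and 5.45 in knockout (-1.67 ± 0.26, SE, adjusted p = 0.0899). Penk, the enkephalin precursor, was detected on 2 wild-type arrays and on no knockout array, and its highest reading, 6.96, was on a knockout array (adjusted p = 0.185). Oxt, the oxytocin precursor, read 8.14, 8.50 and 8.42 in wild type and 8.85, 8.89 and 8.48 in knockout (0.39, adjusted p = 0.529). Cartpt, Penk and Oxt, and the genes of the next paragraph, were picked after their values were seen, and neuropeptides were not tested as a group.

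Some genes were lower by more than 1 probe. Pcp4l1, a relative of the calmodulin regulator PCP4, was lower by both probes (-1.28, adjusted p = 0.0803, and -1.12, adjusted p = 0.126). Ccng1, cyclin G1, a target of p53, differed by -1.08 and -1.0 (adjusted p = 0.125 and 0.126), and Ercc5, a nuclease of DNA repair, by -1.18 and -0.95 (adjusted p = 0.137 and 0.149). Peg3, a paternally expressed zinc finger gene, read 7.04, 7.63 and 6.67 in wild type and 5.61, 5.99 and 5.62 in knockout on probe 100460632 (-1.37, adjusted p = 0.0767). Nnat, which encodes neuronatin, differed by -1.18 on probe 103990551 (adjusted p = 0.126). For both genes all 3 tested probes had negative differences, up to -0.36 for Peg3 and -0.12 for Nnat. Imprinted genes were not counted as a group. Gnas, the imprinted Gs alpha locus through which CRHR1 signals, was mixed: probe 106380014 differed by -0.96 (adjusted p = 0.149), but its 6 tested probes reached up to 0.30. Of 73 genes in the 1.5-fold set with more than 1 tested probe, 57 had all probes on 1 side. Each gene entered the set by a probe that is itself counted here. The share among all genes with more than 1 probe was not counted, so the number is only a description.

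A subset had clear signal on every array. Of 5582 probes detected on all 12 arrays, 20 (0.358%) were lower and 12 (0.215%) higher by 1.5-fold at each treatment. None of the 32 passed over pools. The lower group held Nktr, a cyclophilin-related protein, at 9.49, 9.37 and 9.27 in wild type and 7.96, 8.36 and 7.84 in knockout (-1.32, adjusted p = 0.0803), although its other probes reached up to 0.15. It also held Tgm2, transglutaminase 2, at 9.24, 9.35 and 9.85 against 7.93, 8.72 and 8.99 (-0.93, adjusted p = 0.164). B2m, the light chain of MHC class I, was the brightest of the 20, at 12.79, 12.71 and 13.13 in wild type and 11.91, 11.77 and 12.10 in knockout (-0.95, adjusted p = 0.129). Ass1, argininosuccinate synthase, and Ddah1, which degrades methylarginines that block nitric oxide synthase, differed by -0.89 (adjusted p = 0.15) and -0.94 (adjusted p = 0.139).

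Calls at single treatments, made against the spread between technical arrays of 1 pool, were more numerous. Control had 153 lower (1.06%) and 88 higher (0.611%), 1 h had 92 (0.639%) and 25 (0.174%), and 3 h had 138 (0.958%) and 61 (0.423%). Of those probes, 135 of 241 in control, 78 of 117 at 1 h and 125 of 199 at 3 h had 1 sign at all 3 treatments. Among all tested probes 4621 (32.1%) had 1 sign. The probes were called on 1 of the 3 differences whose signs are counted, so the shares are not a separate check. Only 16 probes passed at each treatment separately. Of these 14 had 1 sign throughout, 13 lower and 1 higher, and 9 were also called over pools. Cacna1h, a T-type calcium channel subunit, was among the 14, at 7.78, 7.63 and 7.81 in wild type and 6.41, 6.50 and 5.69 in knockout (-1.54 over pools, adjusted p = 0.0803). With a replicate block for the slide, which each pool shares, the counts were 271 lower and 154 higher in control, 190 and 59 at 1 h and 171 and 72 at 3 h. The limma F test of the interaction of genotype and treatment was passed by 24 probes (0.167%). With 1 pool per group it too has only the spread of technical arrays as its error, and the count lay between 12 and 1581 with 1 array left out.

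Detection by itself gave the same asymmetry. Of 46147 probes, 181 (0.392%) were detected in every wild-type pool and on no knockout array, and 19 (0.0412%) the reverse. The wild-type set held 17 probes detected on all 6 wild-type arrays, Corin, Kif3a and Ceacam10 among them, and the knockout set held 0 on all 6. The count of 181 was 59 without replicate 1 of the wild-type control pool and 351 without replicate 1 of the knockout 3 h pool. Knockout arrays detected 6119 to 12463 probes and wild-type arrays 10786 to 13506, and the part of this gap in the counts was not tested. On the knockout side, probe 104070452 of Plxnd1, a semaphorin receptor, was detected on 4 of 6 knockout arrays, at least 1.46-fold higher in measured level (adjusted p = 0.323). Its other probe, 104010064, was detected on all 12 arrays and had mixed signs (0.43, adjusted p = 0.508). Olfr586, an olfactory receptor gene, was detected on 4 of 6 knockout arrays, at least 1.32-fold higher (adjusted p = 0.185).

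No named gene passed on the higher side, so the genes below are described by their levels. They were ranked by their smallest difference at any treatment. Nrn1, which encodes the neurite-promoting protein neuritin, read 6.34, 7.07 and 6.02 in the wild-type pools and 7.94, 7.75 and 8.43 in knockout (1.57 ± 0.30, SE, adjusted p = 0.129), and no array overlapped. Eya3, a transcriptional coactivator of the eyes absent family, differed by 1.54 (adjusted p = 0.0931) on probe 1580195, while its other probe differed by 0.04. Dpp10, an auxiliary subunit of potassium channels, differed by 1.30 ± 0.20 (adjusted p = 0.0899), with arrays from 5.25 to 6.52 in wild type and from 6.40 to 7.44 in knockout. Oacyl, an acyltransferase-like gene listed here with the melanotrope markers, differed by 1.23 (adjusted p = 0.125) and was detected on 5 knockout and 3 wild-type arrays.

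Mgp and Ednrb were bright on every array. Mgp, matrix Gla protein, read 9.66, 9.64 and 9.91 in wild type and 10.38, 10.39 and 10.70 in knockout (0.75 ± 0.18, SE, adjusted p = 0.187). Ednrb, the endothelin B receptor, read 8.95, 9.15 and 9.12 against 9.76, 9.84 and 9.80 (0.73 ± 0.18, adjusted p = 0.198), although a dimmer Ednrb probe differed by -0.23. For both, the highest wild-type array lay below the lowest knockout array. Kit, the stem cell factor receptor, differed by 0.99 (adjusted p = 0.126), Slc44a4, a choline transporter-like protein, by 0.77 (adjusted p = 0.184), and Reck, an inhibitor of matrix metalloproteinases, by 0.89 (adjusted p = 0.15). Mgarp, a mitochondrial protein, and Rnf111, a ubiquitin ligase of TGF-beta signalling, differed by 1.09 (adjusted p = 0.125) and 0.86 (adjusted p = 0.162). These 5 genes were dimmer, and the Mgarp arrays overlapped, from 4.95 to 7.18 in wild type and from 5.92 to 7.79 in knockout.

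**Figure D3:**
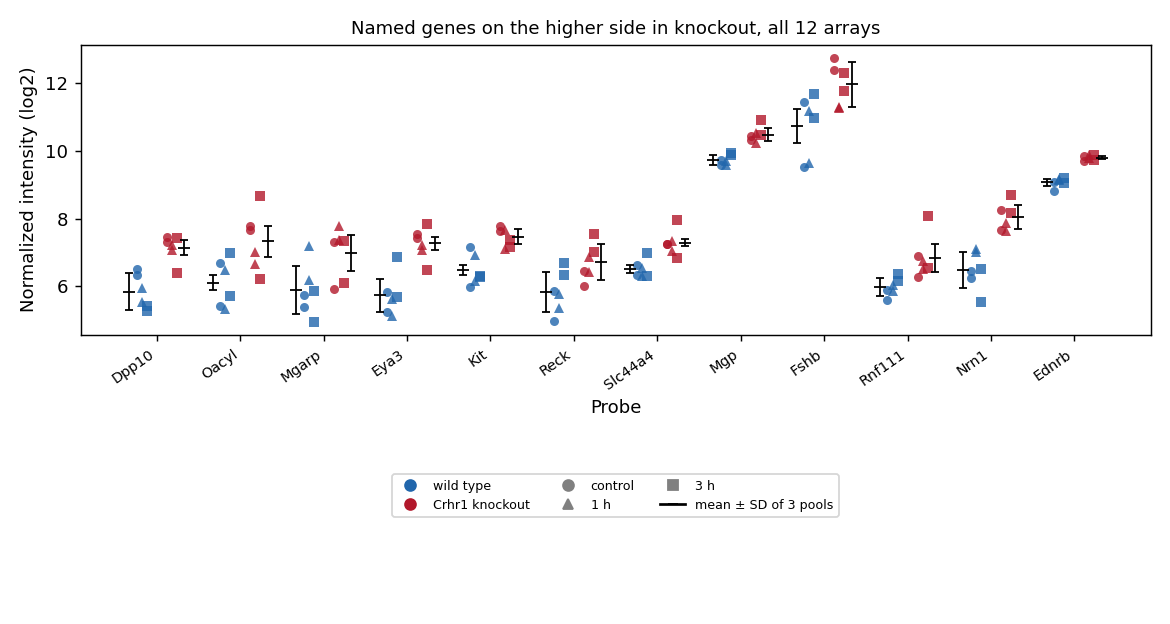
Normalized log2 intensity on all 12 arrays for 12 named genes on the higher side in knockout, with wild type in blue, knockout in red, treatments as symbols, and the mean and SD of 3 pools as black bars. None of the 12 passed the test over pools, and the arrays are fully apart for Mgp, Nrn1 and Ednrb.

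Pituitary hormones were examined because CRHR1 is a receptor of hormone-producing cells, the corticotropes among them. Pomc, the ACTH precursor, read 15.70, 15.57 and 15.57 in wild type and 15.25, 15.57 and 15.57 in knockout (-0.15, adjusted p = 0.851). A dim second probe, 102230463, was detected on 3 knockout and 0 wild-type arrays and was higher at each treatment (adjusted p = 0.25). Gh differed by 0.00 (adjusted p = 1) and Prl by 0.04 (adjusted p = 0.968), with a sign for Prl that turned under median scaling. All 3 lie at the top of the intensity range, where quantile scaling gives arrays the same few values, so differences there may not show. Fshb, the beta chain of follicle-stimulating hormone, was the hormone gene with the largest difference, at 10.50, 10.42 and 11.33 in wild type and 12.58, 11.28 and 12.05 in knockout (1.22 ± 0.28, SE, adjusted p = 0.171). Its wild-type arrays ranged from 9.54 to 11.68 and overlapped the knockout arrays, 11.28 to 12.76. Lhb differed by 0.46 (adjusted p = 0.463), Cga, the shared alpha chain, by 0.23 (adjusted p = 0.713) and Tshb by 0.13 (adjusted p = 0.882, of the opposite sign under median scaling).

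Gene lists were read against all 8592 named tested genes, of which 1504 (17.5%) were lower and 1189 (13.8%) higher at all 3 treatments, with a median mean difference of -0.01. No member of any list passed the test by the probe used (Cdkn1a passed by its dimmer probe), and 5 of all genes (0.0582%) were called lower and 0 (0%) higher by it. Of 23 measured glucocorticoid-responsive genes, 11 were lower and 1 higher at all 3 treatments, with a median of -0.48. The median was -0.36 in control, -0.08 at 1 h and -0.87 at 3 h. In 7 of the 23 the knockout pools lay wholly below the wild-type pools, against 723 of all genes (8.41%). These included Hif3a (-1.17, adjusted p = 0.153), Tgm2, Fkbp5, the co-chaperone of the glucocorticoid receptor (-0.67, adjusted p = 0.271), and Klf9 (-0.44, adjusted p = 0.417). Hif3a read 8.0, 8.32 and 9.47 in wild type and 7.30, 7.37 and 7.60 in knockout, but a dimmer Hif3a probe differed by 0.24. Sgk1 (-0.04), Mt2 (-0.12) and Ddit4 (-0.14), other targets of the receptor, had mixed signs, and Cdkn1c was positive at each treatment (0.52, adjusted p = 0.386). Without the 3 h pools 6 of the 23 were higher at both remaining treatments. The count of 11 lower was 15 under median scaling, which lowers the median of all tested probes to -0.24 from -0.03.

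**Figure D4:**
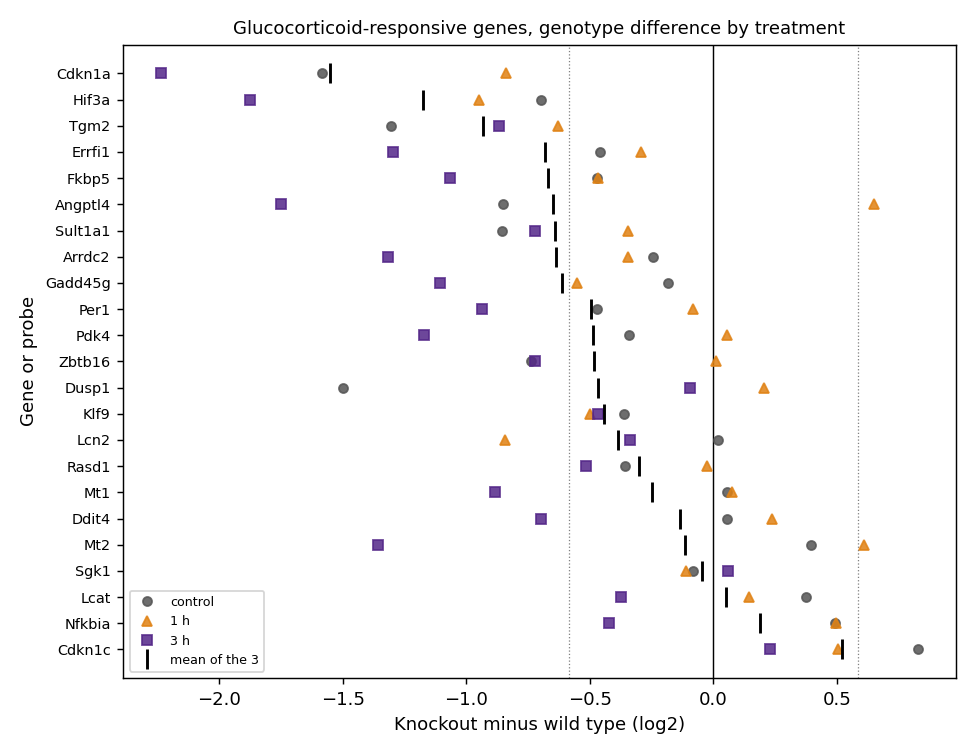
Knockout minus wild type on the log2 scale for the 23 measured glucocorticoid-responsive genes, with 1 symbol per treatment and a bar at the mean. The 3 h values reach from -2.23 for Cdkn1a to 0.23 for Cdkn1c, and 11 genes have all 3 symbols left of 0.

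Signalling lists near the receptor had smaller medians. Of 12 cyclic AMP and CREB targets, 6 were lower and 2 higher at all 3 treatments (median -0.32), with Nfil3, a transcriptional repressor, at -0.58 (adjusted p = 0.285). Of 10 MAPK feedback genes, 4 were lower and 1 higher (median -0.34), and of 19 immediate early genes 5 were lower and 0 higher (median -0.10). Ier3, an early response gene, read 8.08, 8.13 and 8.35 in wild type and 6.90, 7.73 and 7.20 in knockout (-0.91, adjusted p = 0.187). Among 10 measured genes of CRH and vasopressin signalling, 2 were lower and 1 higher (median -0.04). Avpr1b, the vasopressin receptor of corticotropes, was detected on 5 wild-type and 0 knockout arrays, with pools of 6.34, 6.37 and 6.17 against 5.93, 5.90 and 5.49 (adjusted p = 0.351). Corticotrope and melanotrope markers had 2 lower and 3 higher of 12 (median -0.10), and the transcription factor Tbx19, which defines the lineage, differed by -0.17 with mixed signs.

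Cholesterol and fatty acid synthesis held 5 lower and 0 higher of 17 (median -0.07). Its leading members were Lss, lanosterol synthase (-1.13, adjusted p = 0.125), and Insig1, the sterol-regulated retention protein (-1.07, adjusted p = 0.126), both with knockout arrays wholly below wild-type arrays. Hmgcs1 (-0.07), Sqle (-0.02) and Fdps (-0.17), other enzymes of the pathway, had mixed signs. The circadian clock list held 5 lower and 0 higher of 13 (median -0.18). The unfolded protein response held 2 lower and 1 higher of 13, with Atf4 at 1.05 (adjusted p = 0.227), but 8 lower under median scaling. Without the 3 h pools 8 were lower and 3 higher, but there only 2 treatments need share a sign, which by itself raises counts.

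Several lists for other cell types and matrix had more genes higher than lower. The 3 with the largest shares of higher genes are given first. Of 13 macrophage and MHC class II genes, 7 were higher and 1 lower at all 3 treatments (median 0.41). H2-Aa differed by 1.24 (adjusted p = 0.164), H2-Eb1 by 0.80 (adjusted p = 0.187) and C1qc by 0.76 (adjusted p = 0.205), while Fcer1g, an Fc receptor chain of the same cells, was detected on 3 wild-type and 0 knockout arrays (adjusted p = 0.267). H2-Eb1 was detected on all arrays, from 6.89 to 7.63 on wild-type and from 7.84 to 8.35 on knockout arrays. Of 12 collagen and matrix genes, 7 were higher and 1, Sparc (-0.82), lower (median 0.34), and in 6 the pools did not overlap, against 6.2% of all genes. Red blood cell genes were higher in 4 of 5 (median 0.64), with Alas2, the heme synthesis enzyme of erythroid cells, at 0.64 (adjusted p = 0.258). Under median scaling the counts were 4 for the macrophage list, 3 for collagens and 2 for red blood cells, and their medians stayed above 0. The part of blood, immune and matrix cells in the other differences was not tested.

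For the remaining lists, counts are given as higher and lower at all 3 treatments. Gonadotrope and thyrotrope markers had 3 and 0 of 10 (median 0.22), somatotrope and lactotrope markers 2 and 2 of 7 (median 0.04), and folliculostellate and stem cell markers 1 and 2 of 9 (median 0.27), where Sox9 differed by 0.85 (adjusted p = 0.253). Endothelial and pericyte markers had 1 and 0 of 9 (median 0.16), with Cdh5, VE-cadherin, at 0.62 (adjusted p = 0.259). Neuron and oligodendrocyte markers had 1 and 2 of 6 (median 0.20), posterior lobe glia 1 and 1 of 4 (median 0.36), and sex-linked genes 0 and 0 of 3 (median -0.13). Ribosomal proteins had 4 and 0 of 21 (median 0.07), the respiratory chain 3 and 2 of 21 (median 0.07), vesicle release genes 2 and 3 of 14 (median 0.09), and the cell cycle 2 and 0 of 6 (median 0.30). Under median scaling ribosomal proteins had 0 and 1, the respiratory chain 0 and 7 and vesicle release genes 0 and 5. Without the 3 h pools these lists had 12 and 1, 8 and 4, and 7 and 5. Those counts ask for 1 sign at only 2 treatments, and the share of all genes on that rule was not counted.

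**Figure D5:**
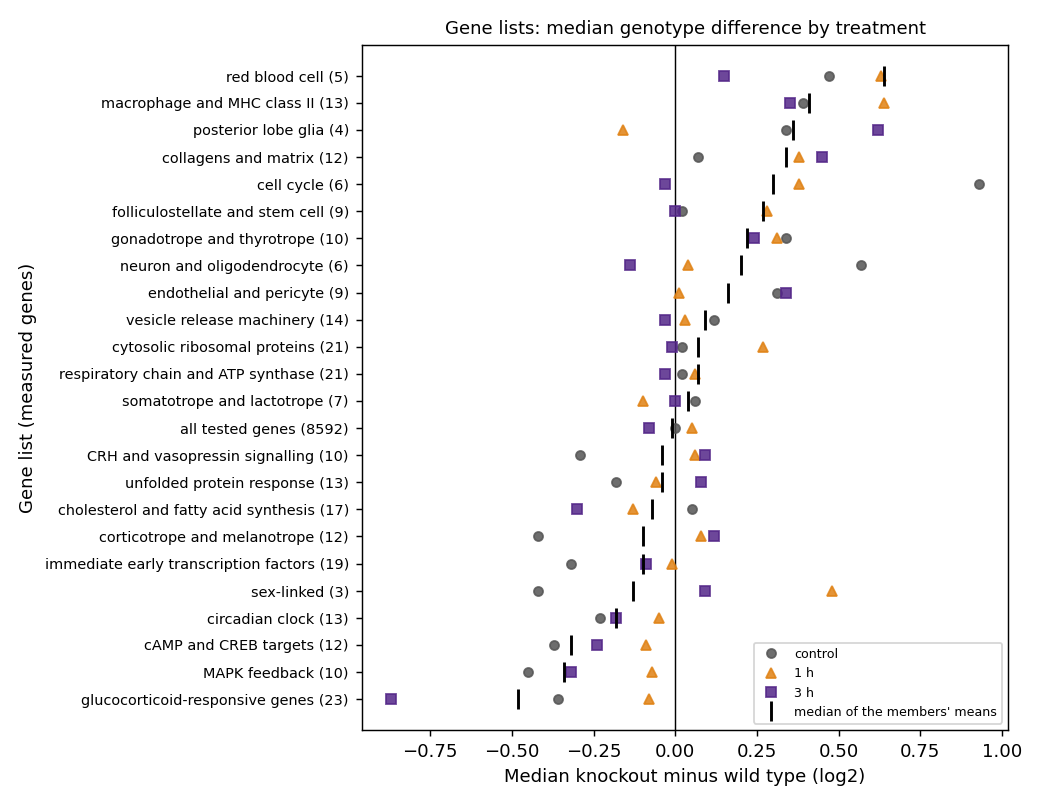
Median knockout minus wild type on the log2 scale over the measured members of each gene list, with 1 symbol per treatment, a bar for the median of the members' means, and all 8592 tested genes as reference at -0.01. Glucocorticoid-responsive genes lie lowest at -0.48 and red blood cell genes highest at 0.64.

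Genes next to Crhr1 were examined as a description of the targeted region. Of the 25 genes on either side of it in the RefSeq gene order of chromosome 11, 23 were measured. None passed, 3 were higher and 2 lower at all 3 treatments, and their median was -0.12. By the probe used for each gene, Cdc27, a subunit of the anaphase-promoting complex, had a mean of -0.74 (adjusted p = 0.347) with mixed signs, and a further probe of Ccdc47 had -0.78 and was lower at each treatment (adjusted p = 0.198). Of the 126 named probes in the lower 1.5-fold set, 16 lay on chromosome 11, among them Crhr1 itself and Dnah9, Kif3a and Sec14l4, which passed the test. Those that passed lie far from Crhr1, at -795, -976 and -1300 steps in the gene order. Nearer members were Cd79b (-0.95, adjusted p = 0.129) at 32 steps and Ddx5 (-0.92, adjusted p = 0.186) at 41. The 16 probes are 1.65% of the tested named probes on chromosome 11, against 1.12% over all chromosomes, 2.31% on chromosome 1 and 2.14% on chromosome 13.

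Promoters were read for the cyclic AMP response element, since CRHR1 signals through cyclic AMP. The window ran from 250 bases before to 50 after each gene's start in RefSeq, build GRCm38.p6, and both strands were searched. The full element TGACGTCA was in 4 of 103 lower genes with a promoter in the table (3.88%), in 0 of 23 higher genes, and in 3.67% of 7049 tested genes. The shorter core TGACG, which the full element contains, was in 36.9% of the lower and 37.1% of the tested genes. Among the higher genes it was in 4 of 23 (17.4%), a small set whose share was not tested. The palindromic glucocorticoid response element was in none of the lower or higher genes and in 0.0284% of the tested ones. The share among the lower genes was thus near that of all tested genes. Cartpt and Peg3, both described above, are shown as holders of the full element, which is in capitals. The Cartpt window is chr13:99900634-99900933 on the minus strand with the element's first base at -112 from the start, and the Peg3 window is chr7:6730370-6730669 on the minus strand with the element at -178.
Cartpt: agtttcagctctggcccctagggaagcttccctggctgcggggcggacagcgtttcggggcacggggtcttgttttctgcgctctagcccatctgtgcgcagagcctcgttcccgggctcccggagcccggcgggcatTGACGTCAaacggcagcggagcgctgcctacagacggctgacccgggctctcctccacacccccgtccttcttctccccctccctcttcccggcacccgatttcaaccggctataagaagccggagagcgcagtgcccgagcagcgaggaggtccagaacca
Peg3: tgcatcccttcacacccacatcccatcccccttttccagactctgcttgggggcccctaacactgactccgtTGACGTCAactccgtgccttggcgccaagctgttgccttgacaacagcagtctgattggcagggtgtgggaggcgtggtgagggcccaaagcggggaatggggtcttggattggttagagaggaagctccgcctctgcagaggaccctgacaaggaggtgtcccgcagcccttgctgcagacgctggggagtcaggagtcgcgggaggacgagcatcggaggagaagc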

How the data were processed

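Per the labels, pooled pituitary RNA was amplified, Cy3-labelled and read on Illumina mouse bead arrays. The deposited file of each array gives, per the file headers, an average bead intensity and a detection p-value for each of 46147 probes, without normalization or background subtraction. The software was BeadStudio, per the submitters' processing notes, with no version given. A deposited table of the authors holds normalized intensity values for 46133 probes, by a method not given in the sources used here, and was used as an alternative input only. Tests skipped 14 probes that this table lacks.

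Intensities were corrected with normexp in limma 3.58.1 (R 4.3.3), which takes background from detection p-values, at offset 16, quantile normalized and put on the log2 scale. Probes detected at p under 0.01 on at least 2 of 12 arrays were kept, 14405 in all, of which 11231 had 1 gene symbol in the probe table of the array. That table gives 1 symbol for 29542 probes and several for 11. The 2 arrays of a pool were averaged, and limma was fitted to the 6 pools with terms for genotype and treatment. Single treatments and the interaction were fitted on 12 arrays with 1 term per group. P-values were adjusted by Benjamini-Hochberg over all tested probes, and a probe passed at an adjusted p under 0.05 and at least 1.5-fold. The number of arrays limits the precision. A fold given as "at least" sets the brighter genotype's mean against a floor, on each array the lowest signal of any detected probe or the probe's own, whichever is higher. 

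Named genes were the Crhr1 probes, named probes that passed, filled to 12 per direction by the smallest difference over treatments among probes with 1 sign in 6 array pairs, the 3 largest same-sign members of each list, hormone genes, neighbours of Crhr1 and probes detected in 1 genotype only. The probe with the highest mean stood for a gene in the 23 lists, which hold 362 genes and share some members. Members, lists and genes named outside these rules were chosen with earlier results of these data known. Alternatives changed the filter, background correction, scaling, input table, slide, unit, weights, probe choice and treatments, and left out each array in turn. The pool fit was tested on simulated data. Replicate numbers name slides, and each pool has 1 array on each slide. The counts over 6 pairs of arrays match them by slide, and fits with the slide as a block were alternatives.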

Additional observations from a re-analysis of the deposited data

Results flagged for a closer look

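At 3 probes that passed at every single treatment, the genotype difference was unequal between treatments by the limma F test of the interaction. Each group is 1 pool, so the test has only the spread of its 2 technical arrays as error. Emb, which encodes embigin, a partner of monocarboxylate transporters, read 10.72, 10.58 and 10.75 in the wild-type control, 1 h and 3 h pools and 4.86, 9.48 and 9.11 in knockout, with an interaction adjusted p = 0.000463. In control, where neither knockout array detected it, it was at least 22.8-fold lower, and the difference was -1.09 at 1 h and -1.64 at 3 h. The 2 knockout control arrays, 4.83 and 4.88, were on different slides. H2-Ab1, an MHC class II chain, changed sign on probe 2370433, from at least 2.71-fold lower in control, where neither knockout array detected it, to 1.54 at 1 h and 1.72 at 3 h on the log2 scale (interaction adjusted p = 0.00329). The brighter H2-Ab1 probe, 4230427, was positive at each treatment, at 0.736, 0.934 and 0.285, and differed by 0.65 over pools (adjusted p = 0.274). Unnamed probe 105670673 went from -0.95 in control and -1.09 at 1 h to a positive difference at 3 h, with pools of 10.43 in wild type and 11.39 in knockout there (interaction adjusted p = 0.013). What lies behind these changes was not tested.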

How the results depend on the processing

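Of 265 single probes followed through the alternatives, 257 had 1 sign in every one. Crhr1 probe 450161 and Gh, at 0.00, took both signs, between -0.32 and 0.31 and between -0.14 and 0.05. The other exceptions were Mbp (0.15 on the slide of replicate 1), Ndufv1 (-0.05 under median scaling), Prl (-0.10 under median scaling and -0.04 to 0.12 with either wild-type control array left out), Tshb (-0.02 under median scaling and -0.06 without the control pools), H2-Ab1 probe 2370433 (-0.01 under median scaling, -0.09 on the slide of replicate 1, -0.41 without the 1 h and -0.50 without the 3 h pools) and unnamed probe 105670673 (0.01 without the 1 h pools). Counts moved far more than signs, and the cause was not tested. The 1 higher and 11 lower calls over pools became 18 and 386 under median scaling, which shifts the median of all probes to -0.24 and the same-sign counts to 420 higher and 5558 lower. With 12 arrays as units they became 132 and 419 without a block, 146 and 489 with the replicate block, and 126 and 430 with array weights, and all 12 calls were among them. They became 16 and 64 without the 1 h pools, 2 higher without the 3 h pools, 3 higher on the slide of replicate 1, 0 lower on the slide of replicate 2, 0 lower with no detection filter and 5 lower with 1 probe per gene, where fewer probes are tested. Leaving out 1 array gave 1 to 17 higher and 0 to 44 lower, both highest values without knockout 3 h replicate 2. The 37 higher and 162 lower probes of 1.5-fold at each treatment became 3 and 28 without background correction, which compresses dim signals, 12 and 378 under median scaling, 69 and 291 on the slide of replicate 2, 105 lower on that of replicate 1, 1 and 23 at 2-fold and 1706 and 2915 with no minimum. Leaving out 1 array gave 28 to 67 (both from a wild-type 3 h array) and 115 to 207 (both from a knockout 3 h array). Probes detected in wild type only ranged from 59 to 351 and in knockout only from 2 to 55 with 1 array left out, and were 17 and 0 when both arrays of each pool were required. At a detection p under 0.05 the knockout count was 46. Replicate 2 arrays detected fewer probes than replicate 1 arrays in each of the 6 groups, and deviations of same-numbered arrays correlated between -0.15 and 0.456 over 15 pairs of groups (median 0.145). For single treatments the replicate block gave 154 higher and 271 lower in control, and 59 and 190 at 1 h. Array weights gave 353 and 553 in control, 147 and 393 at 1 h, and 6 and 14 at 3 h. Leaving out 1 array gave 1 to 273 higher and 5 to 471 lower in control, 1 to 129 and 1 to 339 at 1 h, and 6 to 862 and 11 to 2339 at 3 h, and moved the 24 interaction probes to between 12 and 1581. The highest of these values came with a knockout 3 h array left out, and the lowest with an array of the tested treatment or, for the interaction, a wild-type 1 h array left out. Dim probes, with 38 of the 162 lower ones undetected in knockout, allow only bounds on their folds.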
